A study of Arabidopsis thaliana with 24 samples.

Results

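This comparison set shoots of starved phr1 phl1 double mutants against shoots of fed wild type plants. It covers 6 of the 24 arrays of the series, chosen by their titles: 3 arrays of phr1 phl1 shoots grown without phosphate (−Pi) and 3 arrays of wild type shoots grown with 2 mM Pi (+Pi). All plants were of the Columbia background and grew for 7 days on solid medium with 2% sucrose, which both groups therefore shared. The mutant carries the phr1 mutation together with phl1, a T-DNA line from the SAIL collection, in every cell and from germination on. The other shoot groups were phr1 −Pi and wild type −Pi, with 3 arrays each, and the 4 root groups had the same genotypes and Pi regimes. No phr1 phl1 +Pi group was analysed here, so genotype and Pi regime differ together in this comparison and their parts cannot be told apart. RNA was hybridised to Affymetrix ATH1 arrays, and each value is a log2 RMA signal, so that a difference of 1 is a 2-fold change.

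PHR1 and PHL1 are related MYB transcription factors that bind a short promoter sequence of many Pi starvation genes and switch them on when Pi runs low. In plants that lack both, much of that programme is weakened, and the question of this comparison is what still separates starved mutant shoots from shoots that never lacked Pi. Pi starvation is known in leaves for the exchange of phospholipids for galactolipids, for sugar and anthocyanin build-up, for by-passes of Pi-using steps of glycolysis and respiration, and for lower expression of iron uptake regulators.

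The 6 arrays were alike in overall quality. Each correlated with the other arrays of its group at a mean r of 0.979 to 0.986, and the interquartile range of the signal was 3.44 to 3.58. The 3′ minus 5′ difference of actin, a measure of RNA quality, was 3.46, 3.19 and 3.5 in phr1 phl1 −Pi shoots, against 4.16, 3.58 and 3.56 in wild type +Pi shoots (log2), so that the groups did not overlap. For GAPDH it was 1.14 to 1.59 in phr1 phl1 −Pi shoots and 0.96 to 1.45 in wild type +Pi shoots. The part of this in the results was not tested. A single array of each group stood apart. In wild type +Pi replicate 2, 359 probe sets lay more than 2-fold above both other arrays of its group and 213 lay more than 2-fold below them. In phr1 phl1 −Pi replicate 3 these counts were 45 above and 477 below, whereas in the other 4 arrays they were 6 to 46 above and 7 to 56 below. The green-tissue marker RCA, the activase of Rubisco, had 12.91, 12.56 and 12.81 in phr1 phl1 −Pi shoots, against 12.64, 12.85 and 12.54 in wild type +Pi shoots. RCA was the 1 of 8 green markers with a matched probe set. Of 10 root markers 4 were measured and none passed the test, with a median level of 5.34 in phr1 phl1 −Pi shoots and 5.16 in wild type +Pi shoots. The defining root hair markers EXPA7 and EXPA18 were near the low end of the scale, at 4.09 ± 0.20 and 3.68 ± 0.23 in phr1 phl1 −Pi shoots and at 3.88 ± 0.26 and 4.35 ± 0.21 in wild type +Pi shoots (SD, n = 3 each). The others, PYK10 and PRX57, were not near it. They had 11.51 ± 0.05 and 6.58 ± 0.13 in phr1 phl1 −Pi shoots, against 11.17 ± 0.42 and 5.96 ± 0.94 in wild type +Pi shoots (SD, n = 3 each). Without wild type +Pi replicate 2, 2 of the 4 root markers were higher at the adjusted p. Fewer cells of a type and less RNA per cell cannot be told apart in such whole-shoot samples.

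The genotype could be looked at only through PHL1, since no probe set was matched to PHR1 here. PHL1 had 7.64, 8.36 and 7.06 in phr1 phl1 −Pi shoots, against 5.32, 5.18 and 5.25 in wild type +Pi shoots, a log2 fold change of 2.44 ± 0.30 (SE, adjusted p = 5.57e-06). The signal was thus higher, not lower, on all 3 arrays labelled phr1 phl1. In phr1 −Pi and wild type −Pi shoots it was 5.01 ± 0.34 and 4.97 ± 0.58 (SD, n = 3 each). In roots labelled phr1 phl1 it was also higher than in wild type +Pi roots, by 3.09. The position of the probe set with respect to the insertion is not known here, so it does not check the label. SPX1, a Pi-responsive regulator that restrains PHR1, had 9.45, 9.62 and 8.79 in phr1 phl1 −Pi shoots, beside 9.90 ± 0.47 in phr1 −Pi and 11.23 ± 0.56 in wild type −Pi shoots (SD, n = 3 each).

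Starved double mutant shoots were far from fed wild type shoots in their transcripts. Of 22746 probe sets tested, 908 (3.99%) were more than 2-fold higher in phr1 phl1 −Pi than in wild type +Pi shoots and 883 (3.88%) were more than 2-fold lower, at an adjusted p under 0.05 (limma, Benjamini-Hochberg). Without the limit on the fold change, 2868 (12.6%) rose and 2721 (12%) fell. The median size of the called changes was 1.36 for rises and 1.32 for falls (log2), and 170 rises and 114 falls were more than 4-fold. The 3 phr1 phl1 arrays lay all above the 3 wild type arrays for 4012 probe sets (17.6%) and all below them for 4226 (18.6%). Without both arrays that stood apart, 898 probe sets were higher and 779 lower. Set side by side with shared controls, the phr1 −Pi shoots had 984 probe sets higher (4.33%) and 886 lower (3.9%) than wild type +Pi shoots, and the wild type −Pi shoots had 1879 higher (8.26%) and 1809 lower (7.95%).

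The largest named rise was that of ICL, isocitrate lyase, an enzyme of the glyoxylate cycle that turns fatty acid carbon into sugar precursors. It had 9.13, 9.02 and 10.31 in phr1 phl1 −Pi shoots, against 4.41, 4.38 and 4.57 in wild type +Pi shoots, a log2 fold change of 5.03 ± 0.51 (SE, adjusted p = 6.7e-07). The groups were more than 4 units apart on every array. Its mean was 3.48 above wild type +Pi in phr1 −Pi shoots and 2.00 above it in wild type −Pi shoots, so that the double mutant was highest of the 4 shoot groups. None of the other 4 measured genes of the glyoxylate and lipid reserve list passed the test, among them ACX4 at 0.23 ± 0.18 and SDP1, a lipase of stored oil, at 0.44 ± 0.23.

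Next in size came AT2G04050 and AT2G07722, at 4.96 and 4.88, and then HIS1-3, a linker histone induced by drought and abscisic acid. HIS1-3 had 8.43, 8.83 and 8.16 in phr1 phl1 −Pi shoots, against 4.30, 3.25 and 4.43 in wild type +Pi shoots, a log2 fold change of 4.48 ± 0.27 (SE, adjusted p = 1.34e-09). THI2.2, a thionin of the small antimicrobial peptides, had 9.94 to 10.04 in the 3 phr1 phl1 −Pi shoot arrays, against 5.57, 6.26 and 5.87 in wild type +Pi shoots. Its 3 mutant arrays also lay above the other 9 shoot arrays, and its difference was 4.09 ± 0.29 (SE, adjusted p = 8.86e-09), beside −0.46 for wild type −Pi over wild type +Pi. PHI-1, listed with the carbon starvation genes, had 9.21, 8.65 and 8.90 in phr1 phl1 −Pi shoots, against 5.19, 5.91 and 4.47 in wild type +Pi shoots. It too was above every other shoot array, at 3.73 ± 0.64 (SE, adjusted p = 0.000213). The remaining large rises were those of 5 loci given here by their codes, AT2G04050, AT1G05340, AT5G20790, AT5G09570 and AT2G41730, at 4.02 to 4.96, and of organelle transcripts described further on. AT5G20790 and AT5G09570 were higher still in wild type −Pi shoots, at 7.00 and 6.13 over wild type +Pi.

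**Figure D1:**
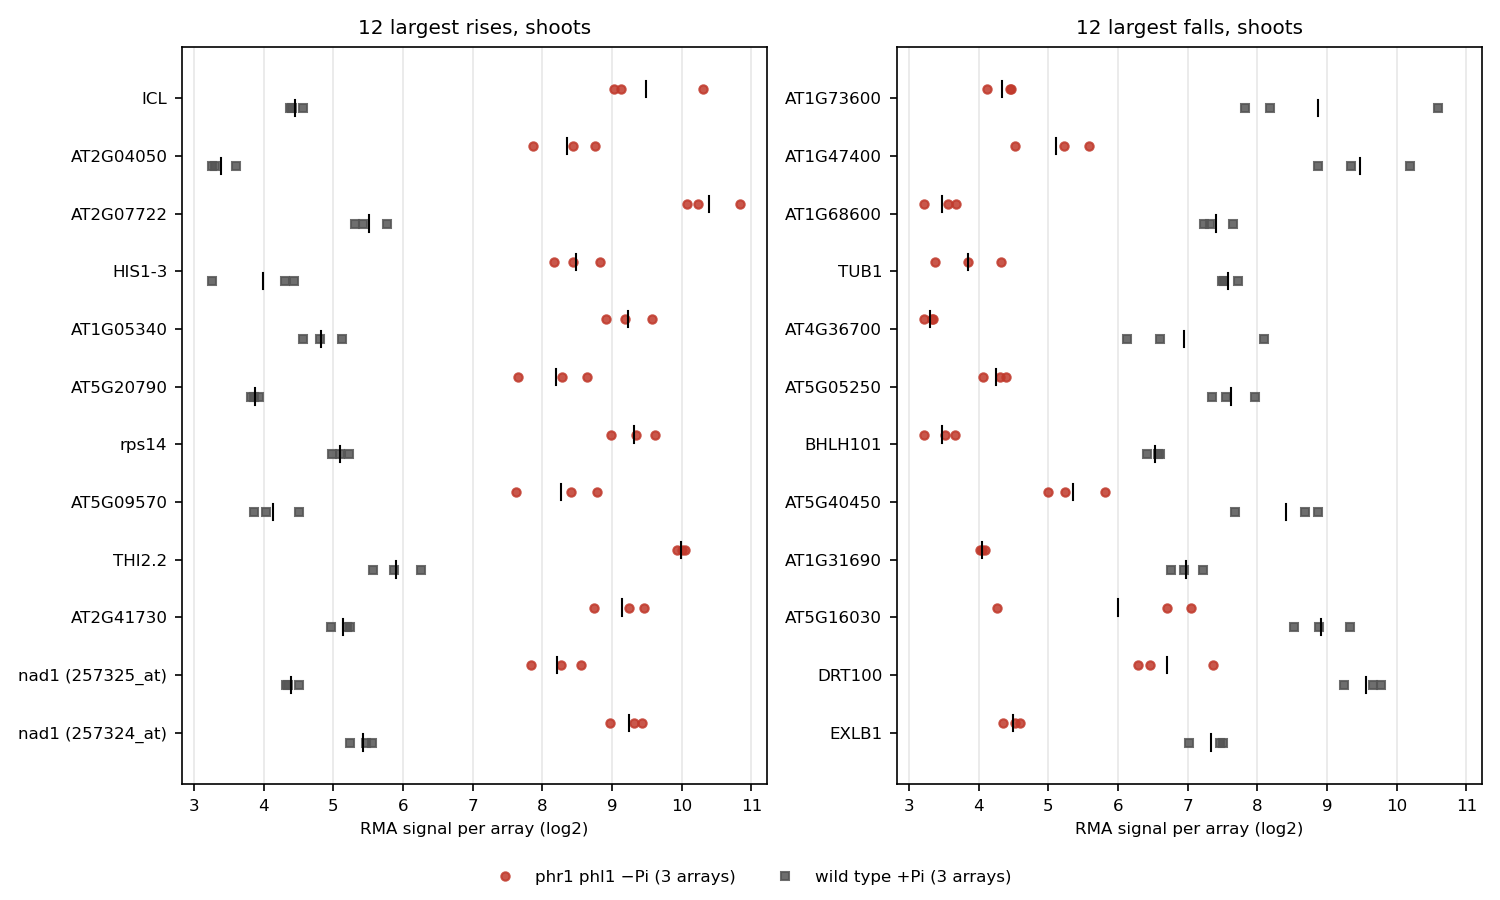
RMA signal (log2) of the 12 largest named rises (left) and falls (right) in each of the 3 phr1 phl1 −Pi shoot arrays (red circles) and the 3 wild type +Pi shoot arrays (grey squares), with black ticks at the group means. The groups do not overlap for any of them, which the choice of these genes requires, and ICL shows the largest rise (5.03) and AT1G73600 the largest fall (−4.53) on the log2 scale.

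The largest fall of a named locus was that of AT1G73600, which is listed with the genes of phospholipid synthesis. It had 4.46, 4.45 and 4.12 in phr1 phl1 −Pi shoots, against 7.83, 10.59 and 8.18 in wild type +Pi shoots, a log2 fold change of −4.53 ± 0.44 (SE, adjusted p = 3.81e-07). Wild type +Pi replicate 2 was high, yet the other 2 wild type arrays were also more than 3 units above every mutant array, and the difference without that array was −3.66. AT1G73600 was also far lower in wild type −Pi than in wild type +Pi shoots, so that this fall was not particular to the double mutant. TUB1, a β-tubulin of the microtubules, had 3.85, 4.33 and 3.38 in phr1 phl1 −Pi shoots, against 7.73, 7.49 and 7.52 in wild type +Pi shoots. It fell by 3.73 on the log2 scale (SE 0.26, adjusted p = 8.43e-09), and the levels of the mutant were near the low end of the scale. AT4G36700, annotated as a cupin of the globulin-like storage proteins, fell to 3.34, 3.22 and 3.32 in phr1 phl1 −Pi shoots, against 6.13, 8.10 and 6.61 in wild type +Pi shoots. EXLB1, an expansin-like cell wall protein, had 4.35, 4.52 and 4.60 in phr1 phl1 −Pi shoots, against 7.51, 7.01 and 7.46 in wild type +Pi shoots. Its difference of −2.84 ± 0.29 stood beside a rise of 3.01 in wild type −Pi over wild type +Pi shoots. AT5G16030 fell by 2.91 (SE 0.53), with 6.70, 7.05 and 4.26 in phr1 phl1 −Pi shoots, the lowest value in replicate 3, against 8.53, 8.89 and 9.33 in wild type +Pi shoots. A probe set that was matched to no gene fell furthest of all, by 6.57, and is not named here.

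The gene lists used here are partial, since 151 of the 616 genes written into them had a matched probe set. Of 8 probe sets for 7 measured Pi signalling genes, 2 rose more than 2-fold (3.99% over all probe sets) and 4 rose at the adjusted p alone (12.6% over all), with none lower, and the list's median was 0.48 beside −0.008 over all probe sets. The 2 were SPX1 and PHL1 itself. SPX1 had 6.78, 7.18 and 6.40 in wild type +Pi shoots, so that the mutant was higher by 2.50 ± 0.30 (SE, adjusted p = 3.96e-06). That value stood beside 3.11 for phr1 −Pi and 4.44 for wild type −Pi over the same controls. WRKY6, a repressor of a Pi exporter gene, rose by 0.56 ± 0.16 (SE). WRKY75, a regulator of Pi uptake genes, had a difference of 0.18 ± 0.21 that did not pass the test.

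MGD2, a galactolipid synthase that serves the exchange of phospholipids for galactolipids, had 7.11, 6.87 and 7.26 in phr1 phl1 −Pi shoots, against 5.29, 4.52 and 5.08 in wild type +Pi shoots. It rose by 2.12 ± 0.17 (SE, adjusted p = 4.95e-08), beside 5.40 for wild type −Pi over wild type +Pi shoots, and the mutant lay 3.28 below starved wild type shoots. Of the 3 measured Pi transport genes none changed 2-fold, and 1 rose and 1 fell at the adjusted p alone (12.6% and 12% over all probe sets). AT1G69480 rose by 0.37 ± 0.12 (SE, adjusted p = 0.029). It missed that threshold without any 1 of phr1 phl1 −Pi replicates 2 and 3 and wild type +Pi replicates 2 and 3, and with the spread taken from the shoot arrays alone. AT1G63010, listed with the vacuolar Pi transporters, fell by 0.75 ± 0.13 (SE, adjusted p = 0.000201), with 7.65, 7.75 and 7.71 in phr1 phl1 −Pi shoots, against 8.33, 8.69 and 8.34 in wild type +Pi shoots. In wild type −Pi shoots it was 0.97 above wild type +Pi. The 2 measured Pi scavenging genes, the acid phosphatase PAP26 and the ribonuclease RNS2, did not pass the test, at 0.06 ± 0.14 and 0.03 ± 0.14, while RNS2 was 1.62 higher in wild type −Pi than in wild type +Pi shoots.

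The list of redox enzymes and glutaredoxins had the highest median of the lists with at least 3 measured genes. Glutaredoxins are small enzymes that reduce disulfides with glutathione, and the list also holds GSTU25, a glutathione transferase. Of its 9 probe sets 7, GSTU25 among them, rose more than 2-fold (3.99% over all probe sets). At the adjusted p alone 8 rose (12.6% over all) and none fell. The list's median was 2.42, beside −0.37 for wild type −Pi and 0.91 for phr1 −Pi over wild type +Pi shoots. AT4G15680 had 9.73, 10.33 and 8.67 in phr1 phl1 −Pi shoots, against 6.14, 6.32 and 6.25 in wild type +Pi shoots, a log2 fold change of 3.34 ± 0.27 (SE, adjusted p = 4.01e-08). All 3 mutant arrays were above every other shoot array of the series. Its neighbour AT4G15690 had 8.70, 8.85 and 7.95 in phr1 phl1 −Pi shoots, against 5.83, 5.66 and 5.53 in wild type +Pi shoots, and rose by 2.83 ± 0.28. AT4G15700 had 7.52, 7.20 and 6.79 in phr1 phl1 −Pi shoots, against 4.91, 3.62 and 4.73 in wild type +Pi shoots, and rose by 2.75 ± 0.37. Both neighbours fell in wild type −Pi against wild type +Pi shoots, by 1.1 and 1.41, so that the starved genotypes lay on opposite sides of the fed control.

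AT4G15660, AT4G15680, AT4G15690 and AT4G15700 are neighbouring genes on chromosome 4. They are similar in sequence, and how far their probe sets share signal was not tested, so they are not independent members. AT3G62950, listed with the glutaredoxins on another chromosome, had 7.69, 7.21 and 6.95 in phr1 phl1 −Pi shoots, against 4.24, 3.34 and 4.50 in wild type +Pi shoots. It rose by 3.26 ± 0.26 (SE, adjusted p = 3.36e-08), was above every other shoot array, and differed by −0.34 in phr1 −Pi and −0.87 in wild type −Pi from wild type +Pi shoots. AT5G18600, also from the list, rose by 1.51 ± 0.25 with 10.46, 10.42 and 10.16 in phr1 phl1 −Pi shoots, against 9.03, 8.32 and 9.14 in wild type +Pi shoots. GRX480, a glutaredoxin induced by salicylic acid, did not pass the test at −0.08 ± 0.22, whereas wild type −Pi was 3.0 above wild type +Pi. GSTU25 had 3.69, 5.58 and 6.08 in phr1 phl1 −Pi shoots, against 3.36, 3.78 and 3.61 in wild type +Pi shoots, so that its groups overlapped and its rise of 1.53 ± 0.42 (SE, adjusted p = 0.0103) rested on 2 of the 3 mutant arrays.

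Genes of iron homeostasis were lower in all the starved shoots. The 3 measured members of the list all fell more than 2-fold in phr1 phl1 −Pi against wild type +Pi shoots (3.88% over all probe sets). Their median was −1.56, beside −1.79 for phr1 −Pi and −1.84 for wild type −Pi. BHLH101, a transcription factor that activates iron uptake, had 3.67, 3.52 and 3.22 in phr1 phl1 −Pi shoots, against 6.58, 6.42 and 6.61 in wild type +Pi shoots. It fell by 3.07 (SE 0.25, adjusted p = 3.93e-08) and was 0.35 above wild type −Pi shoots, a difference that did not pass the test (adjusted p = 0.305). PYE, a regulator of the iron deficiency response, had 4.20, 4.04 and 4.24 in phr1 phl1 −Pi shoots, against 5.60, 5.81 and 5.74 in wild type +Pi shoots. OPT3, a transporter that loads iron into the phloem, had 8.16, 8.35 and 8.09 in phr1 phl1 −Pi shoots, against 9.80, 9.79 and 9.67 in wild type +Pi shoots. Each fell by 1.56, with an SE of 0.13 for PYE and 0.20 for OPT3. The spread within the groups was small for all 3, and the groups did not overlap. Of 26 genes written into the list only these 3 had a matched probe set.

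**Figure D2:**
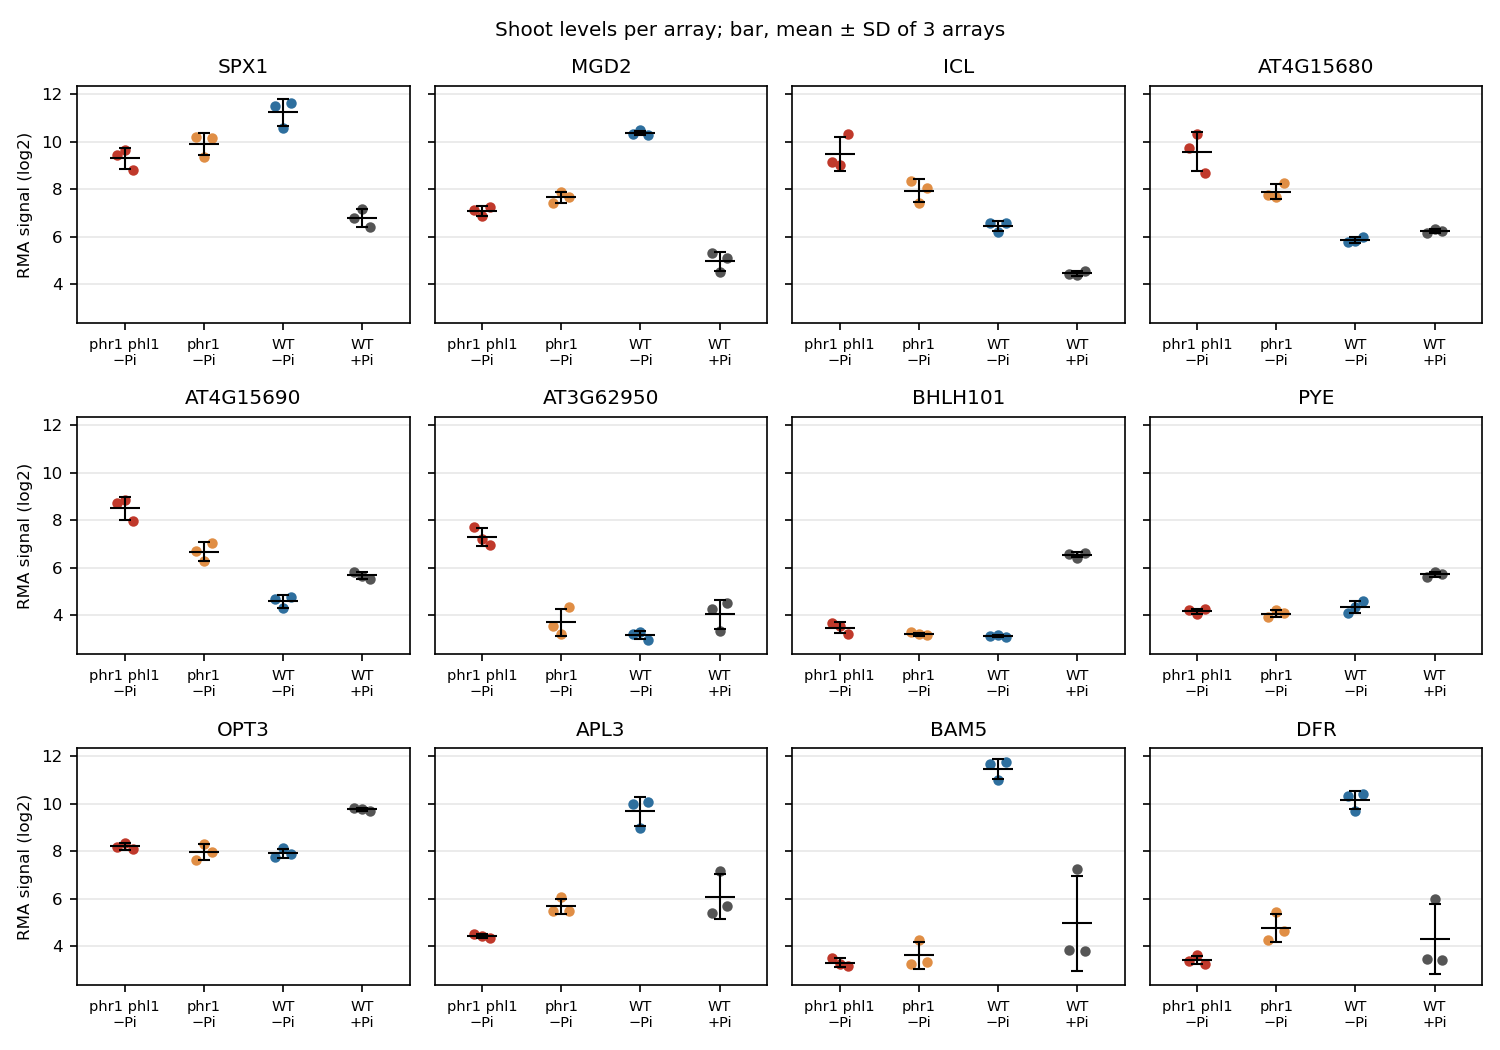
RMA signal (log2) of 12 genes in the 4 shoot groups, each point an array and each bar the mean ± SD of 3 arrays, with wild type +Pi at the right of each panel. AT4G15680, AT4G15690, AT3G62950 and ICL were highest in phr1 phl1 −Pi shoots, SPX1 and MGD2 were highest in wild type −Pi shoots, the 3 iron genes were lower in all 3 starved groups than in wild type +Pi, and in BAM5 and DFR a single wild type +Pi array stood apart.

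On the list of sulfate uptake and sulfur deficiency the measured genes were lower or did not pass the test. Of 4 measured members of the list 2 fell more than 2-fold (3.88% over all probe sets). At the adjusted p alone 3 fell (12% over all) and none rose. The median was −1.07, beside 0.65 for wild type −Pi over wild type +Pi shoots. APS3, an ATP sulfurylase that activates sulfate, had 5.91, 5.66 and 6.26 in phr1 phl1 −Pi shoots, against 7.30, 8.19 and 7.42 in wild type +Pi shoots, and fell by 1.7 (SE 0.20, adjusted p = 4.9e-06). SULTR4;1, which exports sulfate from the vacuole, had 5.67, 5.70 and 5.80 in phr1 phl1 −Pi shoots, against 6.52, 6.78 and 6.24 in wild type +Pi shoots. It fell by 0.78 (SE 0.16), whereas wild type −Pi was 1.49 above wild type +Pi. AT5G26220, annotated as ChaC-like, fell by 1.36 with 3.51, 3.79 and 4.15 in phr1 phl1 −Pi shoots, against 4.48, 6.37 and 4.68 in wild type +Pi shoots. Its groups did not overlap, but without wild type +Pi replicate 2 its difference was −0.76 (adjusted p = 0.012) and under the 2-fold limit. The call was also lost with the spread taken from the shoot arrays alone (adjusted p = 0.0502) or from the compared groups alone (0.103).

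Starch metabolism genes were likewise lower. Of 10 measured members 4 fell more than 2-fold (3.88% over all probe sets). At the adjusted p alone 6 fell (12% over all) and none rose. The median was −0.86, beside 0.44 for wild type −Pi over wild type +Pi shoots. APL3, a subunit of ADP-glucose pyrophosphorylase, which makes the substrate of starch synthesis, had 4.49, 4.40 and 4.33 in phr1 phl1 −Pi shoots, against 5.38, 7.15 and 5.69 in wild type +Pi shoots. It fell by 1.67 (SE 0.32, adjusted p = 0.000645), and by 1.09 without both arrays that stood apart. DPE2, which processes maltose from starch, had 9.04, 9.28 and 8.50 in phr1 phl1 −Pi shoots, against 9.79, 10.82 and 10.04 in wild type +Pi shoots, and fell by 1.28 (SE 0.25). Without both arrays its difference was −0.75 (adjusted p = 0.0363), under the 2-fold limit.

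Among the smaller falls on the starch list, DPE1 had 7.33, 7.05 and 7.46 in phr1 phl1 −Pi shoots, against 7.97, 7.95 and 8.40 in wild type +Pi shoots (−0.83 ± 0.14). RCP1, the maltose exporter of the chloroplast, had 7.42, 7.21 and 7.78 in phr1 phl1 −Pi shoots, against 8.24, 8.31 and 8.51 in wild type +Pi shoots (−0.88 ± 0.18). Neither set of arrays overlapped. Calls for a branching enzyme and a β-amylase depended on single arrays. SBE2.2 was called at −1.01 (adjusted p = 0.0221), and was no longer past the threshold without phr1 phl1 −Pi replicate 2 (adjusted p = 0.0514), without phr1 phl1 −Pi replicate 3 (0.117) or without wild type +Pi replicate 2 (0.118). BAM5 had 3.51, 3.24 and 3.18 in phr1 phl1 −Pi shoots, against 3.82, 7.26 and 3.80 in wild type +Pi shoots, so that its call at −1.65 (adjusted p = 0.0416) came from wild type +Pi replicate 2. Without that array its difference was −0.50 (adjusted p = 0.207), and without any 1 of the mutant arrays the adjusted p was 0.0662 to 0.103.

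Tetrapyrrole synthesis is the pathway to chlorophyll and haem. Of 12 measured members only 1 fell more than 2-fold (3.88% over all probe sets). At the adjusted p alone 6 fell (12% over all) and 1 rose (12.6% over all). The median was −0.53, beside −0.70 for phr1 −Pi and −1.08 for wild type −Pi. HEMC, which makes the linear tetrapyrrole, had 9.28, 8.97 and 9.08 in phr1 phl1 −Pi shoots, against 10.25, 9.93 and 10.05 in wild type +Pi shoots, a difference of −0.97 ± 0.16 (SE, adjusted p = 0.000112). HEMB1, the enzyme before it, had 8.84, 8.80 and 9.02 in phr1 phl1 −Pi shoots, against 9.97, 9.59 and 9.85 in wild type +Pi shoots. CHLI2, a subunit of the magnesium chelatase at the branch to chlorophyll, had 7.41, 7.26 and 6.91 in phr1 phl1 −Pi shoots, against 8.19, 8.43 and 8.34 in wild type +Pi shoots, and fell by 1.13 (SE 0.21). The groups were apart for all 3. GSA1, HEME1 and HEME2 also fell, by 0.54, 0.52 and 0.88. HEMA2, a glutamyl-tRNA reductase, rose by 0.59 ± 0.17 (adjusted p = 0.0124), and missed that threshold without phr1 phl1 −Pi replicate 1. None of the 5 measured genes of the photosynthetic light reactions and none of the 3 of the Calvin cycle passed the test, with medians of −0.13 and 0.08 and single values of −0.40 to 0.20.

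Of 5 measured genes on the list of Pi-sparing glycolysis and respiration, 1 rose and 2 fell more than 2-fold (3.99% and 3.88% over all probe sets). The median was −0.69. NDB2, an alternative NAD(P)H dehydrogenase of the outer face of the mitochondrial inner membrane, had 6.69, 7.39 and 7.69 in phr1 phl1 −Pi shoots, against 5.46, 6.50 and 5.36 in wild type +Pi shoots, and rose by 1.49 ± 0.32 (SE, adjusted p = 0.00153). The 3 loci listed with pyrophosphate-dependent phosphofructokinase, a by-pass that spares ATP, all fell at the adjusted p. AT1G20950 had 7.12, 6.41 and 7.14 in phr1 phl1 −Pi shoots, against 8.15, 8.62 and 8.18 in wild type +Pi shoots, a difference of −1.42 ± 0.16. AT1G12000 and AT1G76550 fell by 1.03 and 0.69, with groups apart. Neither was more than 2-fold changed in wild type −Pi shoots, where their differences were −0.80 and 0.12.

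**Figure D3:**
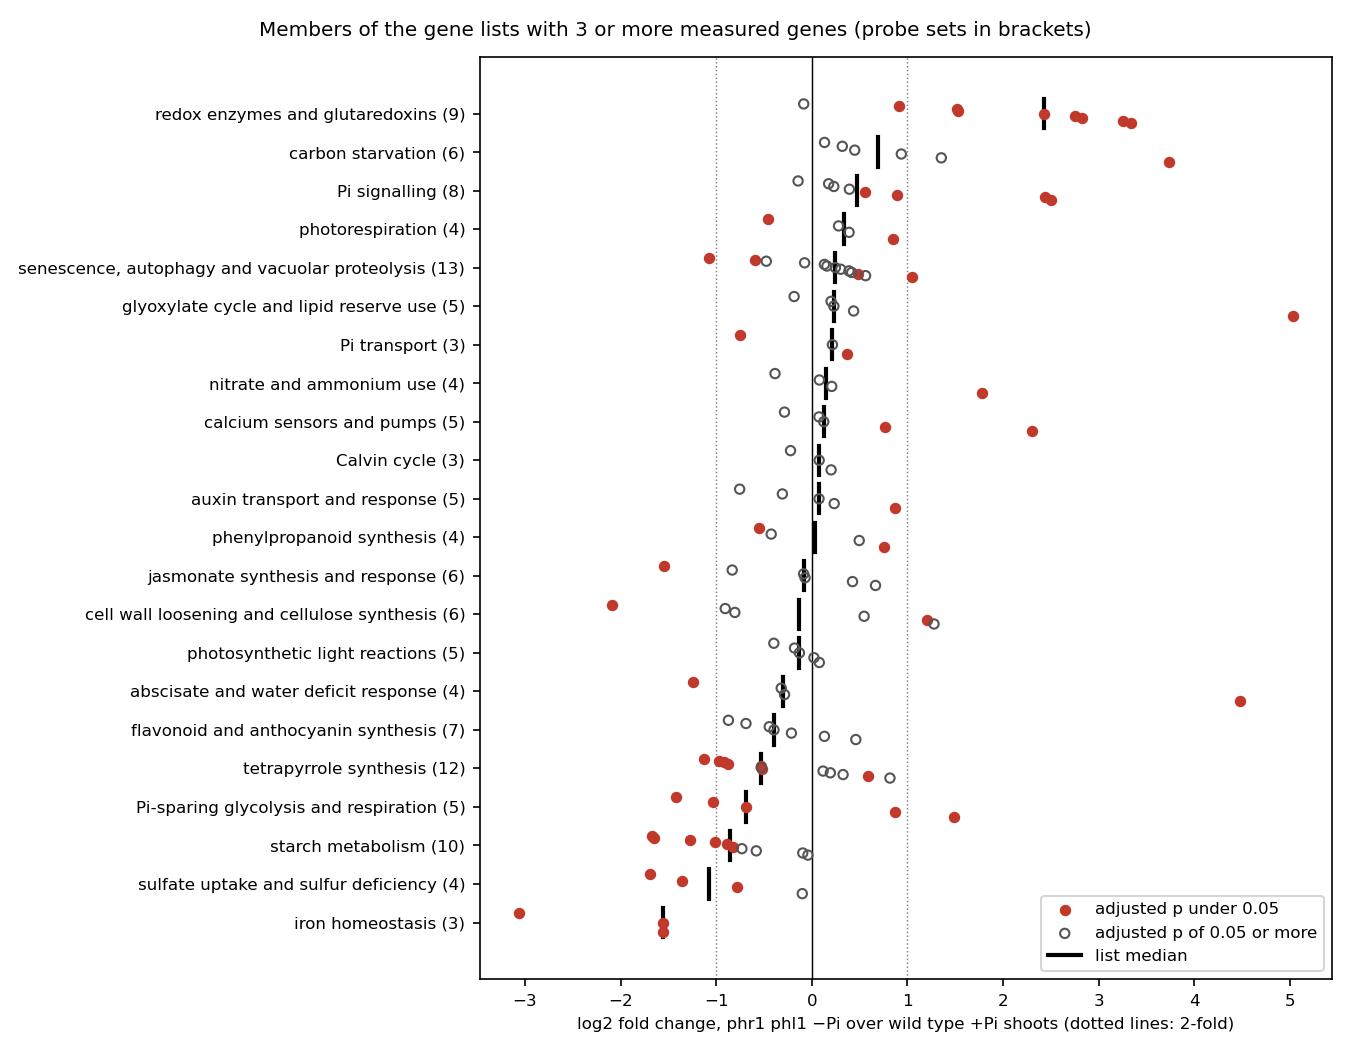
Log2 fold change of phr1 phl1 −Pi over wild type +Pi shoots for each measured member of the gene lists with at least 3 measured genes, filled where the adjusted p is under 0.05, with a black bar at each list's median. The redox and glutaredoxin list has the highest median (2.42) and the iron list the lowest (−1.56), the starch and sulfate lists have members only at or below 0, and most other lists scatter around 0.

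Flavonoid and anthocyanin synthesis, which was strongly raised in starved wild type shoots, was not higher in the double mutant. None of the 7 measured members passed the test, and the median was −0.40, beside 0.57 for phr1 −Pi and 4.72 for wild type −Pi over wild type +Pi shoots. DFR, an enzyme of the anthocyanin branch, had 3.38, 3.60 and 3.26 in phr1 phl1 −Pi shoots, against 3.46, 5.99 and 3.41 in wild type +Pi shoots. PAP1, a MYB activator of that branch, had 3.45, 3.69 and 3.5 in phr1 phl1 −Pi shoots, against 3.34, 5.11 and 3.37 in wild type +Pi shoots. Wild type +Pi replicate 2 was the highest array of its group for all 7 members, with a median level of 5.11, against 3.71 and 3.85 in replicates 1 and 3. Without that array 1 member was higher at the adjusted p. Only list counts at the adjusted p that moved by a large factor without that array are given here, so smaller moves are not shown. Pi transport had 0 higher instead of 1, and senescence 1 higher instead of 2. Cell wall had 2 lower instead of 1, and phenylpropanoid synthesis 0 lower instead of 1. In the cytokinin list 1 member was then lower, against 0 with all arrays. On the starch list SBE2.2 and BAM5, which passed with all arrays, no longer passed without wild type +Pi replicate 2 (adjusted p = 0.118 and 0.207).

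Among lists of hormone, stress and nutrient genes, 1 of 6 jasmonate genes, 2 of 4 of the abscisate and water deficit list and 1 of 4 nitrate and ammonium genes were called, beside 3.99% higher and 3.88% lower over all probe sets. The jasmonate gene PDF1.2, a plant defensin, had 4.71, 4.66 and 4.90 in phr1 phl1 −Pi shoots, against 5.65, 6.90 and 6.35 in wild type +Pi shoots, and fell by 1.54 (SE 0.20, adjusted p = 8.47e-06). VSP1 and JMT, both strongly raised in wild type −Pi over wild type +Pi shoots at 5.10 and 4.27, did not pass the test in the double mutant, at −0.83 ± 0.69 and −0.07 ± 0.18. On the abscisate list HIS1-3 rose and COR15B fell. COR15B, a protein that protects chloroplasts in cold, had 6.07, 5.96 and 4.95 in phr1 phl1 −Pi shoots, against 6.55, 7.22 and 6.94 in wild type +Pi shoots, a difference of −1.24 ± 0.26 that was −0.73 without both arrays that stood apart. The nitrate list gene AT1G68670 had 8.52, 8.61 and 8.31 in phr1 phl1 −Pi shoots, against 6.50, 6.66 and 6.94 in wild type +Pi shoots, and rose by 1.78 ± 0.20.

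Some further calls on short lists were less firm. CML38, a calmodulin-like calcium sensor, had 6.60, 6.72 and 5.93 in phr1 phl1 −Pi shoots, against 4.24, 4.13 and 3.96 in wild type +Pi shoots, and was called at 2.31 (adjusted p = 0.0153), but not without phr1 phl1 −Pi replicate 2 (0.0539). RR16, a type-A response regulator of cytokinin, was called at 1.1 (adjusted p = 0.0291) with 6.88, 7.21 and 6.57 in phr1 phl1 −Pi shoots, against 6.61, 4.41 and 6.33 in wild type +Pi shoots. Its groups were close but for wild type +Pi replicate 2, without which its difference was 0.42 (adjusted p = 0.153). It also missed the threshold without phr1 phl1 −Pi replicate 1 (0.0632) and without replicate 2 (0.114). COL1, a CONSTANS-like factor, was called at 1.16, and not without wild type +Pi replicate 3 (0.69, adjusted p = 0.067). BEE2, an early brassinosteroid gene, was called at −1.51, and not without phr1 phl1 −Pi replicate 3 (−1.05, adjusted p = 0.187), without wild type +Pi replicate 1 (adjusted p = 0.0718) or without replicate 3 (0.139).

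Of 6 measured genes of cell wall loosening 1 rose and 1 fell, both expansins, beside 3.99% higher and 3.88% lower over all probe sets. EXPA4 (0.55 ± 0.28) and EXPA16 (1.28 ± 0.48) did not pass the test, nor did the root hair expansins given above. EXPA8 had 4.99, 5.03 and 6.80 in phr1 phl1 −Pi shoots, against 7.32, 7.79 and 7.97 in wild type +Pi shoots, and fell by 2.09 (SE 0.38, adjusted p = 0.00041). EXPA15 had 8.46, 7.79 and 8.97 in phr1 phl1 −Pi shoots, against 7.24, 7.07 and 7.29 in wild type +Pi shoots, and rose by 1.21 ± 0.27, a call that is lost without both arrays that stood apart (0.86, adjusted p = 0.0594). Among 13 genes of senescence, autophagy and vacuolar proteolysis 1 rose and 1 fell more than 2-fold, beside the same shares over all probe sets. On a list of this length such counts are not read as a result of the list. ACD1, an oxygenase of chlorophyll breakdown, had 7.10, 7.12 and 7.08 in phr1 phl1 −Pi shoots, against 7.97, 8.34 and 8.21 in wild type +Pi shoots, and fell by 1.08 (SE 0.17). ATG8B, an autophagy protein, was called at 1.05 (adjusted p = 0.0138), and not without phr1 phl1 −Pi replicate 3 (0.90, adjusted p = 0.0679).

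Transcripts encoded in the mitochondrial genome were higher as a group. Of 61 probe sets for them 25 rose more than 2-fold (3.99% over all probe sets). At the adjusted p alone 46 rose (12.6% over all) and none fell. The median was 0.82, beside 0.64 for phr1 −Pi and 0.21 for wild type −Pi over wild type +Pi shoots. The labelling primes from poly(A) tails, which plant organelle transcripts carry mainly on their way to decay, so that these signals are of tailed RNA. Many of the probe sets match more than 1 transcript or share a transcript, and they are not independent members. The subunits of complex I, the first enzyme of the respiratory chain, were the most affected: all 16 nad probe sets rose at the adjusted p and 10 of them more than 2-fold, with a median of 2.49.

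The nad1 transcript showed the size of this difference on each array. Its most changed probe set had 7.83, 8.55 and 8.27 in phr1 phl1 −Pi shoots, against 4.50, 4.32 and 4.35 in wild type +Pi shoots, a log2 fold change of 3.83 ± 0.23 (SE, adjusted p = 1.24e-09). For nad9 the values were 7.61, 8.33 and 7.15 in phr1 phl1 −Pi shoots, against 4.84, 4.85 and 4.92 in wild type +Pi shoots, a rise of 2.83. For cox1, a subunit of cytochrome oxidase, they were 10.09, 10.07 and 10.26 in phr1 phl1 −Pi shoots, against 7.44, 7.35 and 8.04 in wild type +Pi shoots, a rise of 2.53. In none of the 3 did the groups overlap. In phr1 −Pi shoots the same 3 probe sets were 4.23, 2.62 and 2.33 above wild type +Pi, and in wild type −Pi shoots 1.48, 0.48 and 0.90 above it. AT2G07722, a locus of the mitochondrial sequence copy on chromosome 2 with a probe set that matches several transcripts, had 10.08, 10.84 and 10.24 in phr1 phl1 −Pi shoots, against 5.43, 5.77 and 5.32 in wild type +Pi shoots. The count of mitochondrial rises was 24 to 27 when any 1 of the 6 arrays was left out.

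Chloroplast-encoded transcripts did not move as a group. Of 80 probe sets 9 rose more than 2-fold (3.99% over all probe sets) and none fell. At the adjusted p alone the count was also 9 (12.6% over all), with none lower. The median was −0.08, with a range of −1.62 to 4.21, beside medians of −0.58 for phr1 −Pi and −1.08 for wild type −Pi over wild type +Pi shoots. In both of these starved groups replicate 2 was low for some chloroplast probe sets. For rpoC1 the values were 10.54, 8.83 and 10.50 in phr1 −Pi and 9.67, 6.83 and 9.92 in wild type −Pi shoots. How far the 2 medians rest on replicate 2 was not tested. The 4 chloroplast probe sets that rose most in phr1 phl1 −Pi shoots had groups far apart. For rps14, a ribosomal protein transcript, the values were 9.35, 9.61 and 8.99 in phr1 phl1 −Pi shoots, against 5.22, 4.98 and 5.10 in wild type +Pi shoots. For rbcL, the large subunit of Rubisco, they were 12.47, 11.61 and 12.42 in phr1 phl1 −Pi shoots, against 8.61, 8.11 and 8.51 in wild type +Pi shoots. For petD, a subunit of the cytochrome b6f complex, they were 7.96, 8.35 and 8.40 in phr1 phl1 −Pi shoots, against 4.63, 4.51 and 4.43 in wild type +Pi shoots. These rises of 4.21, 3.76 and 3.72 and that of ndhB.1 (4.09) stood beside 4.13, 3.70, 3.70 and 3.96 in phr1 −Pi and 0.81, 0.51, 0.41 and 0.28 in wild type −Pi over wild type +Pi shoots, in the same order of genes. Both starved mutant groups were thus high for these 4 transcripts.

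The smaller chloroplast rises were less regular. For rpoB, a subunit of the plastid RNA polymerase, the values were 7.12, 7.76 and 4.38 in phr1 phl1 −Pi shoots, against 4.63, 4.11 and 4.52 in wild type +Pi shoots, so that replicate 3 was at the level of the controls. psbA, a core protein of photosystem II, had 11.89, 8.37 and 12.37 in phr1 phl1 −Pi shoots, against 12.37, 12.40 and 12.71 in wild type +Pi shoots, with replicate 2 low, and did not pass the test (−1.62 ± 0.77, adjusted p = 0.14). The count of chloroplast rises was 5 without phr1 phl1 −Pi replicate 2, 6 without wild type +Pi replicate 2, 11 without phr1 phl1 −Pi replicate 3 and 7 or 8 without any other array.

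**Figure D4:**
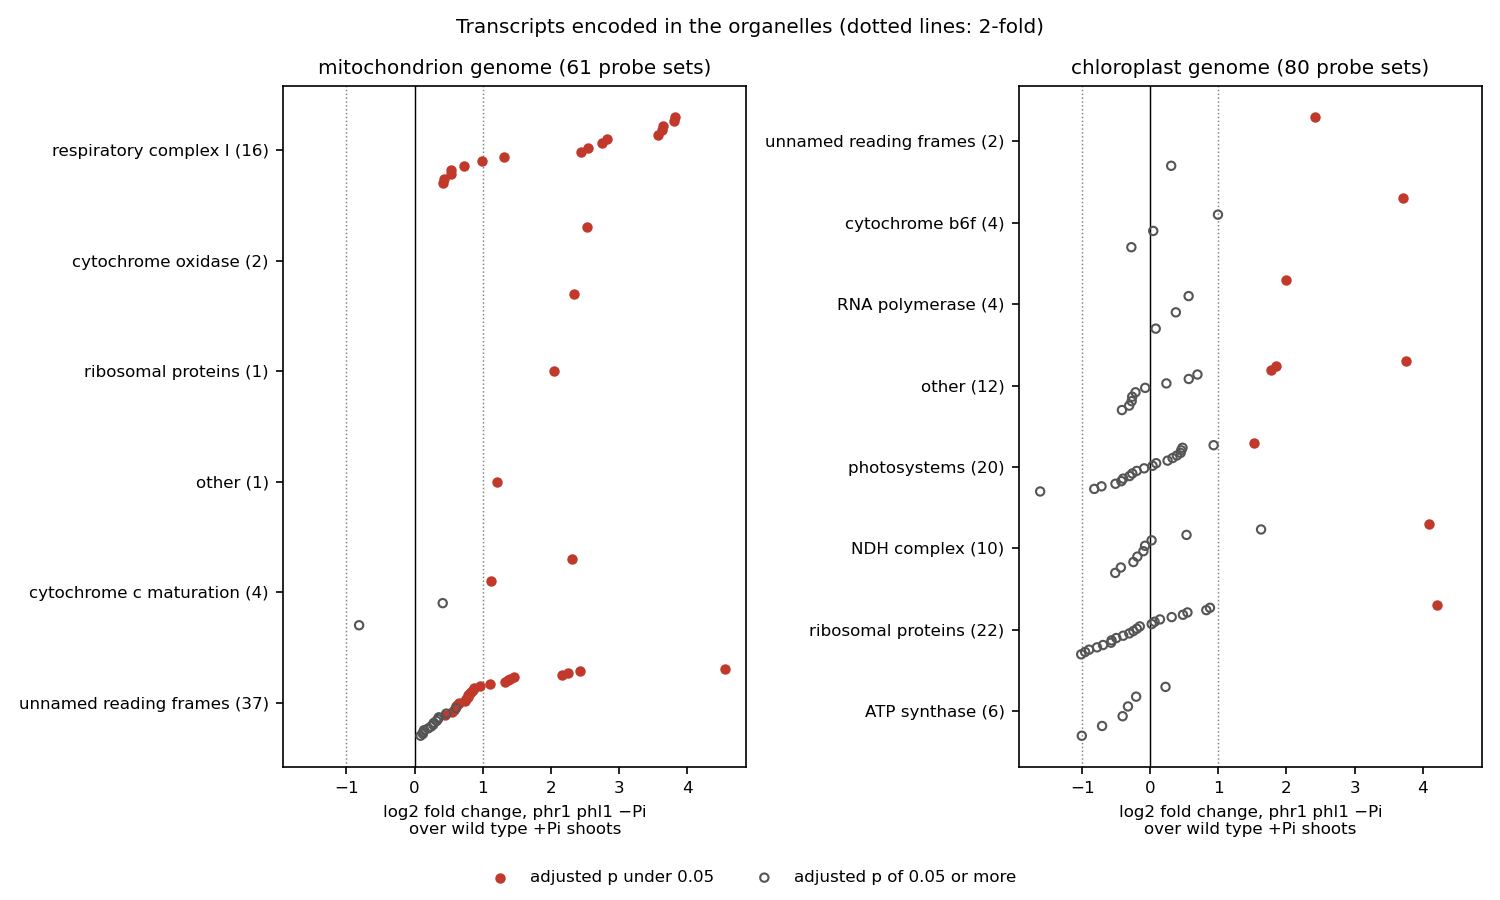
Log2 fold change of phr1 phl1 −Pi over wild type +Pi shoots for 61 mitochondrial (left) and 80 chloroplast (right) probe sets, grouped by the complex or function of the product, filled where the adjusted p is under 0.05. All 16 complex I probe sets lie to the right of 0 and are filled, whereas the chloroplast groups centre near 0 with a few members above 3.

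Roots of the same genotypes and Pi regimes shared no array with the shoots. In phr1 phl1 −Pi roots 806 probe sets (3.54%) were more than 2-fold higher and 399 (1.75%) lower than in wild type +Pi roots. Of the shoot rises 238 were also root rises, 26.21% of the shoot list and 29.53% of the root list, and of the shoot falls 105 were also root falls, 11.89% of the shoot list and 26.32% of the root list. Opposite calls were few, with 3 probe sets higher in shoots and lower in roots and 14 lower in shoots and higher in roots. By the test of the difference between organs, the shoot difference was more positive than that of roots by more than 2-fold for 817 probe sets (3.59%) and more negative for 953 (4.19%).

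The glutaredoxins and TUB1 were among those that differed between organs. AT4G15680, AT4G15690, AT4G15700, AT4G15660 and AT3G62950 rose by 2.42 to 3.34 in shoots, against differences of −0.34 to 0.06 in roots that did not pass the test, and each difference between organs was called, at 2.70 to 3.41. TUB1 fell by 3.73 in shoots, against a difference of 0.14 in roots, and the organs differed by −3.87. Among the named shoot rises PHI-1 had the most positive organ difference, with 3.73 in shoots and −0.54 in roots. For SPX1 and HIS1-3 the difference between organs did not pass the test (adjusted p = 0.953 and 0.544). SPX1 was higher by 2.50 in shoots and by 2.43 in roots, and HIS1-3 by 4.48 in shoots and by 4.93 in roots. MGD2 rose by 2.12 in shoots, against 0.31 in roots, and its organ difference of 1.8 was called.

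The 5 most negative organ differences of loci with a name included 4 that rose in roots and did not change past the threshold in shoots. AT1G09310 had 10.44, 10.61 and 9.96 in phr1 phl1 −Pi shoots, against 11.29, 12.09 and 11.38 in wild type +Pi shoots, a difference of −1.25 ± 0.60 (adjusted p = 0.149), and was 4.89 higher in phr1 phl1 −Pi than in wild type +Pi roots. With the spread taken from the shoot arrays or the compared groups alone, the shoot difference passed the threshold (adjusted p = 0.0085 and 0.0186). The values were −0.47 in shoots and 5.05 in roots for AT5G64120, a peroxidase gene. For AT1G64370 they were −0.62 in shoots and 4.14 in roots. Of the named loci AT4G33720 had the most positive organ difference (5.71), and AT3G12900 (4.15) came after PHI-1 (4.27). For AT4G33720 and AT3G12900 these values came through falls of 6.50 and 4.87 in roots, beside shoot differences of −0.79 and −0.72. AT3G12900 passed the adjusted p in shoots (0.0365) and missed it without any 1 of 4 of the 6 arrays, among them wild type +Pi replicate 1 (0.161).

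**Figure D5:**
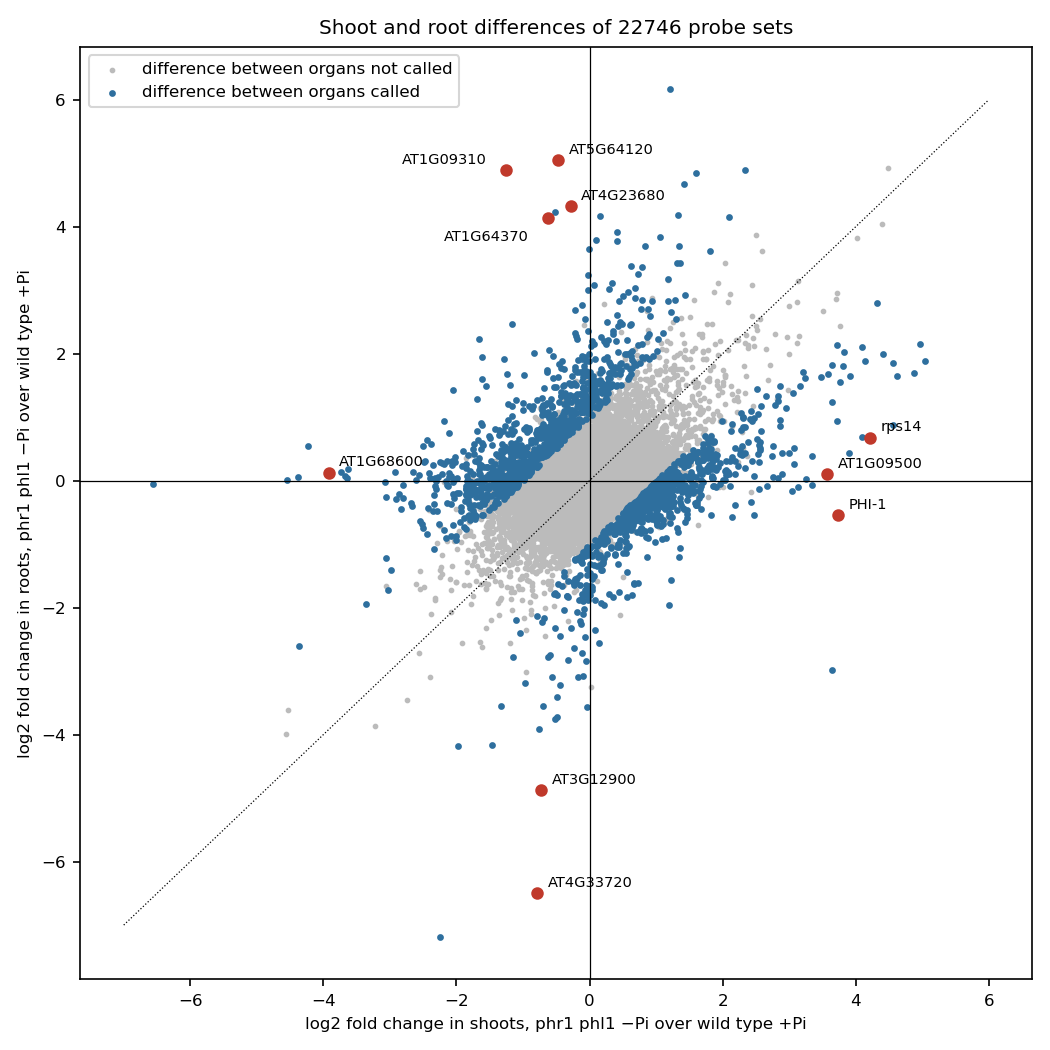
Log2 fold change of phr1 phl1 −Pi over wild type +Pi in shoots (horizontal axis) and in roots (vertical axis) for 22746 probe sets, blue where the difference between organs was called, with a dotted line of equal change and red points for the 5 named loci at each end of the organ difference. AT5G64120, AT4G23680 and AT1G64370 lie far up the root axis near 0 in shoots, and AT1G09310 lies far up it at −1.25 in shoots. AT1G68600 lies far left and near 0 in roots, and rps14, AT1G09500 and PHI-1 lie far right.

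Some called probe sets were picked out because their 3 phr1 phl1 arrays lay outside the other 9 shoot arrays. That separation follows from the choice, and the difference between phr1 phl1 −Pi and phr1 −Pi shoots was not tested. For 136 called rises (0.598% of those tested) the 3 phr1 phl1 arrays lay above the other 9 shoot arrays, and for 135 called falls (0.594%) they lay below them. Beside ICL, THI2.2, PHI-1, AT4G15680 and AT3G62950, the named rises included PDF1.4, a plant defensin, with 7.74, 8.83 and 8.26 in phr1 phl1 −Pi shoots, against 5.43, 5.07 and 4.98 in wild type +Pi shoots, a rise of 3.12 ± 0.36 (SE, adjusted p = 2.53e-06). AT5G04880 and AT1G72060 rose by 3.07 and 2.97. The wild type −Pi shoots differed from wild type +Pi by −0.70, −0.07 and −0.15 for these 3 genes, in that order, and the phr1 −Pi shoots by 1.35, 2.66 and 2.07.

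Among the falls below all other shoot arrays was AT1G31690, annotated as a putative copper amine oxidase, with 4.03, 4.09 and 4.04 in phr1 phl1 −Pi shoots, against 6.95, 6.76 and 7.21 in wild type +Pi shoots. This probe set fell by 2.92 (SE 0.14, adjusted p = 4.36e-11), and the second probe set of the gene fell by 1.27. AT5G50335 had 2.89, 2.80 and 2.96 in phr1 phl1 −Pi shoots, against 5.43, 4.87 and 5.50 in wild type +Pi shoots. AT2G43620 had 6.41, 6.76 and 7.05 in phr1 phl1 −Pi shoots, against 9.20, 9.67 and 8.86 in wild type +Pi shoots. These and the other 5 named falls of the kind, EXLB1 among them, ranged from −2.92 to −2.21. AT1G76960 and EXLB1 were 2.2 and 3.01 higher in wild type −Pi than in wild type +Pi shoots, so that for them the starved genotypes lay on opposite sides of the fed wild type.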

How the data were processed

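Shoots and roots of wild type, phr1 and phr1 phl1 plants were hybridised to 24 ATH1 arrays in 8 groups of 3. The deposited values are log2 signals that the authors obtained by RMA, which corrects background, normalises arrays to 1 distribution and summarises probes; the processing notes of the submitters give no version. Such quantile scaling removes shifts shared by most probe sets, and the number of arrays limits the precision. After 64 control probe sets were left out, 22746 were fitted with limma 3.58.1 (R 4.3.3) in 1 model of 8 group means over 24 arrays, with Benjamini-Hochberg adjustment over all probe sets. Calls needed an adjusted p under 0.05 and a change of over 2-fold. Of the probe sets 14203 matched 1 gene, 503 several and 8040 none by the name tables used. The named genes were PHL1 and SPX1, the 12 largest rises and 12 largest falls with groups apart, up to 4 called members of each list and 2 called the other way, the 5 organ differences at each end, and up to 8 genes in each direction beyond the other 9 shoot arrays; list members not called could be named with values. The fit was tested on simulated data. The members and lists were chosen with earlier results of these data known. The replicates were described as independent and obtained over an interval of months, with no batch given per array, so that p-values cover the spread between these samples. The replicate numbers did not pair the samples (correlations of same-numbered arrays 0.09, −0.04 and −0.17). Promoter sequences were not used here.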

Additional observations from a re-analysis of the deposited data

Results flagged for a closer look

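The difference between phr1 phl1 −Pi and wild type +Pi plants was not the same in shoots and roots for a share of the probe sets, by limma's test of that difference with Benjamini-Hochberg adjustment: 817 were more positive in shoots and 953 more negative, both at more than 2-fold. Among the named genes 48 were of this kind, and each value here is the shoot log2 fold change minus the root log2 fold change.

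More positive in shoots were the metabolic and defence genes ICL (3.16), THI2.2 (3.40), PHI-1 (4.27) and MGD2 (1.8), and the expansin EXPA15 (1.88). The glutaredoxin loci AT4G15680 (3.41), AT3G62950 (3.23), AT4G15690 (2.79) and AT4G15700 (2.70) had the same sign. Organelle transcripts were rps14 (3.54), nad1 by 2 of its probe sets (1.8 and 2.01), and AT2G07722 (3.18). The other loci were AT2G04050 (2.80), AT5G20790 (1.52), AT5G09570 (2.24), AT1G09500 (3.47), AT5G04880 (2.55), AT1G68670 (1.15), AT3G12900 (4.15) and AT4G33720 (5.71). The values of the last 2 came from falls in roots.

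More negative in shoots were the cell wall and cytoskeleton genes TUB1 (−3.87), EXLB1 (−2.39) and EXPA8 (−2.16), and DRT100 (−2.65). The iron regulators BHLH101 (−1.85) and PYE (−1.25) were also more negative, as were APL3 (−1.65) of starch synthesis, CHLI2 (−1.42) and ACD1 (−1.50) of chlorophyll synthesis and breakdown, COR15B (−1.26), PDF1.2 (−1.33) and AT1G20950 (−1.07). Loci that rose in roots were AT1G09310 (−6.14), AT5G64120 (−5.52), AT1G64370 (−4.76) and AT4G23680 (−4.60). The others were AT1G68600 (−4.05), AT4G36700 (−3.69), AT1G31690 (−3.07), AT2G43620 (−3.06), AT5G50335 (−2.96), AT5G16030 (−2.62), AT5G45650 (−2.54), AT1G76960 (−2.51), AT5G61520 (−2.31), AT1G47400 (−1.75) and AT5G05250 (−1.43).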

How the results depend on the processing

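The counts of calls stayed within 1.5 times those reported under the other scalings, variance models and choices of samples: 834 to 1048 higher and 779 to 909 lower in phr1 phl1 −Pi than in wild type +Pi shoots, 2002 to 3108 and 1842 to 3123 at the adjusted p alone, and 767 to 884 and 878 to 1085 for the organ difference. With the arrays' medians centred, the median of all probe sets moved to 0.0486. Leaving out 1 array at a time, or both arrays that stood apart (chosen after seeing the data), gave 848 to 988 higher, 779 to 957 lower, 2117 to 2613 and 2077 to 2394 at the adjusted p alone, and 706 to 876 and 818 to 972 for the organ difference. With the replicate number as a block the counts were 916 higher and 882 lower. With 1 probe set per gene, where fewer features are tested, they were 509 and 456, with 1639 and 1481 at the adjusted p alone and 467 and 482 for the organ difference. At 1.5-fold and an adjusted p under 0.1 they were 2250 and 2110, with 1908 and 1831 for the organ difference, and at 4-fold 170 and 114, with 108 and 176.

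AT4G23680 (−0.28) changed sign to 0.42 without wild type +Pi replicate 2 and to 0.08 without both arrays, with a range of −0.67 to 0.42 over the arrays left out; the cause was not tested. Over the named genes and all alternatives, 1155 values kept their side of the adjusted p threshold and their direction. A further 43 no longer passed that threshold, 2 came to pass it and 2 changed sign. The limit on the fold change was not part of this count. Values that fell only under that limit, such as those of COR15B, DPE2 and AT5G26220 given above, are thus among the 1155. Of the list counts, also taken at the adjusted p alone, 1068 stayed within 1.5 times the reported count and 88 moved further. With 3 arrays per group, differences near the median SE of 0.158 were not detectable, and low signals limit the size of a fall.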

Other observations

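Some gene families outside the lists were looked up after their members' values were seen, and are given as values, beside 3.99% of all probe sets called higher and 3.88% called lower. All 5 measured β-tubulins fell at the adjusted p and 4 of them more than 2-fold: TUB1 (−3.73), TUB6 (−1.23), TUB7 (−1.23) and TUB5 (−1.08), with TUB9 at −0.64. The α-tubulins were split, with TUA1 at 1.07 and TUA6 at −0.87. Tubulin genes are alike in sequence, and how far their probe sets share signal was not tested. The mitotic Aurora kinase AUR1 had 4.92, 4.97 and 5.44 in phr1 phl1 −Pi shoots, against 7.03, 7.00 and 6.70 in wild type +Pi shoots, AUR2 fell by 1.15, and the third, AUR3, did not pass the test (0.16, adjusted p = 0.559). Of the 2 A-type cyclins CYCA1;1 fell by 1.15 and CYCA1;2 rose by 0.41 (adjusted p = 0.0144). Of 6 histone H2A and H2B genes 5 fell at the adjusted p, 2 of them more than 2-fold, HTA10 by 1.18 and HTB2 by 1.1, while HTA7 did not pass (−0.07). Of 11 IQD genes none rose more than 2-fold and 4 fell more than 2-fold, while IQD23 rose by 0.83 (adjusted p = 0.00204).

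Of 5 plant defensin genes 2 rose and 2 fell. PDF2.1 had 7.73, 7.10 and 8.69 in phr1 phl1 −Pi shoots, against 4.86, 4.28 and 5.45 in wild type +Pi shoots, whereas PDF1.2b had 3.54, 3.81 and 3.55 in phr1 phl1 −Pi shoots, against 5.40, 6.33 and 5.98 in wild type +Pi shoots. Of 5 alternative NAD(P)H dehydrogenases 2 rose and none fell: beside NDB2, NDB4 had 5.57, 5.75 and 5.92 in phr1 phl1 −Pi shoots, against 3.74, 4.1 and 3.92 in wild type +Pi shoots. Among 14 SWEET sugar transporters SWEET4 (1.27) and SWEET2 (1.0) rose and SWEET10 (−1.22) fell, and the other 11 did not pass the test. Of 11 GSTU glutathione transferases 2 rose and 2 fell more than 2-fold, and of 4 MSRB methionine sulfoxide reductases 1 rose and 2 fell.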
